A study of Mus musculus with 6 samples.

Results

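Cholesterol and fatty acid synthesis is described here by 32 genes, chosen by name: the enzymes of the mevalonate and sterol steps, the SREBP regulators, 2 sterol transport genes and the enzymes of fatty acid and glycerolipid synthesis. All 32 were among the 23420 genes of the deposited table and all passed the filter on low counts. RNA sequencing was done on mouse embryonic fibroblasts of mixed 129/Sv-C57BL/6 background that carry the adenoviral oncogene E1A and the activated Ras allele HrasG12V. Both groups share these oncogenes and a 24 h recovery at 37 °C in 5% oxygen after plating. The sgp53 group carries a CRISPR guide against the p53 gene Trp53, and the sgNTC group a non-targeting guide with wild-type p53. The same 3 cell lines are in both groups, with 1 library per line and group, 6 libraries in all. The labels call the sgp53 cells p53 null in lines 1 and 3 and functionally inactive in line 2, so that this difference in label cannot be told apart from the line. The labels do not say whether a line is a clone or came from an embryo of its own, and the library names of lines 2 and 3 share a number that line 1 does not have, whose meaning is not given. The p-values rest on the spread between these lines within each group, without the pairing by line except where the line is a block.

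Cells make cholesterol from acetyl-CoA through mevalonate, isoprenoids and squalene. The transcription factor SREBP2, held in the endoplasmic reticulum by SCAP and INSIG proteins while sterols are plentiful, is cut free when sterols fall and switches on almost every enzyme of the route, while SREBP1 does the same for fatty acid synthesis. p53 has been described, in mouse and human cells, as a brake on this route that acts by inducing the sterol efflux pump Abca1 and so keeping SREBP2 from maturing. RNA levels do not show how much SREBP protein was cut.

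Of the 32 genes, 1 passed the test between sgp53 and sgNTC cells. Lpin1, which encodes the phosphatidic acid phosphatase lipin 1, fell to 8.19 ± 1.98 CPM in sgp53 cells, against 24.0 ± 6.11 CPM in sgNTC cells (SD, n = 3 each). CPM is the usual unit of counts scaled to library size, here to TMM-normalized totals. No enzyme of cholesterol synthesis, no SREBP regulator and not Abca1 passed the test. For most of the 32 genes the sgp53 minus sgNTC difference was lowest in line 3, and for most the sgp53 library of line 2 held the highest of the 6 levels.

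The fit across all genes sets the background for these counts. EdgeR's quasi-likelihood test called 841 of 13044 tested genes at an adjusted p under 0.05, which is 6.45%, with 360 higher in sgp53 (2.76%) and 481 lower (3.69%). With the line as a block it called 311. Of the 32 genes, 1 (3.12%) was called, against that 6.45%. An unadjusted p under 0.05 was reached by 6 of the 32 (18.8%), against 29.0% of all tested genes. For 7 of the 32 (21.9%) the CPM of the groups showed no overlap, against 36.8% over the whole table. DESeq2 called 3 of the 32 (9.38%), which were Lpin1, Sqle and Scd1, against 17.3% of the 13771 genes it gave an adjusted p, and limma-voom called 1 (3.12%), against 5.35% of all.

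Facts of the libraries bear on the values below. Totals lay between 29564516 and 35860866 counts in sgp53 and between 27503577 and 32536641 counts in sgNTC. Trp53 (chromosome 11, 69580348 to 69591873 on GRCm38) had 71.1, 72.0 and 113 CPM in sgp53 lines 1 to 3, against 206, 277 and 253 CPM in sgNTC (log2 fold change -1.52, edgeR adjusted p = 0.0168; 0.0679 without sgp53 line 1, 0.0507 without sgp53 line 2, 0.0721 without sgNTC line 3 and 0.0731 to 0.112 without any one line), and the p53 target Cdkn1a averaged 86.3 ± 13.6 CPM in sgp53 and 697 ± 44.1 CPM in sgNTC (SD, n = 3 each). The sgp53 library of line 3 stood apart in the ribosomal RNA precursor Rn45s, with 3338 CPM against 636 to 864 CPM in the other 5. The 7 fibroblast and mesenchyme markers were all detected, with a summed level of 3084 to 5016 CPM in sgp53 and 2881 to 3489 CPM in sgNTC. Vim held most of that sum, at 2688 ± 272 CPM in sgp53 and 3121 ± 322 CPM in sgNTC (SD, n = 3 each), and was not called. Of the 7, edgeR called 2, Col1a1 and Col1a2, both higher in sgp53. The 5 epithelial markers summed to 116 to 165 CPM in sgp53 and 294 to 689 CPM in sgNTC. EdgeR called 1 of them, Krt18, lower in sgp53 (adjusted p = 0.0295, and 0.0534 with the line as a block). Krt18 held most of the sgNTC sum, at 415 ± 200 CPM, against 66.7 ± 23.8 CPM in sgp53 (SD, n = 3 each). Epcam (-1.17), Krt8 (-0.77), Krt19 (-0.38) and Cdh1 (0.10), as log2 fold changes, were not called. Of the 6 adipocyte markers Lep was at 0 in all libraries and Pparg held most of the summed level, which was 3.42 to 4.03 CPM in sgp53 and 3.56 to 7.94 CPM in sgNTC. The 4 hepatocyte markers summed to at most 0.195 CPM in each library. The leukocyte list was carried by Cd68, which was lower in sgp53, at 3.68 CPM against 9.23 CPM in sgNTC, with Ptprc, Lyz2 and Cd3e near or at 0, and the endothelial list summed to 1.64 to 2.65 CPM over all libraries. The part of these markers in the results on lipid genes was not tested, and in bulk RNA fewer cells of a type and less RNA per cell cannot be told apart.

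Lpin1 (chromosome 12, 16535669 to 16653903 on GRCm38) codes for an enzyme that makes diacylglycerol for glycerolipid synthesis, and the lipin 1 protein also acts in the nucleus as a coregulator of transcription. It has been described as a p53-responsive gene in mouse cells. Its level was 6.49, 10.4 and 7.72 CPM in sgp53 lines 1, 2 and 3, against 20.4, 31.1 and 20.6 CPM in sgNTC lines 1, 2 and 3. The groups did not overlap, and line 2 had the highest value in both. These levels rest on 190, 373 and 220 counts in sgp53 and 679, 858 and 608 counts in sgNTC. The log2 fold change was -1.55 (SE 0.24, 95% interval -2.14 to -0.96, edgeR adjusted p = 0.0234), a level 2.93-fold lower in sgp53. Within lines 1, 2 and 3 the log2 difference was -1.64, -1.58 and -1.41, so the fall was of like size in each line. Of the 481 genes called lower, 124 had a larger fall.

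The Lpin1 call held with the line as a block (edgeR adjusted p = 0.0177), in DESeq2 and in limma-voom. It was lost without sgp53 line 1 (edgeR adjusted p = 0.0807), without sgp53 line 3 (0.0691), without sgNTC line 3 (0.0737) and without both libraries of line 1 (0.115), line 2 (0.0512) or line 3 (0.166), while the log2 fold change stayed between -1.75 and -1.32 in all 14 alternatives. No 50-base stretch of the longest Lpin1 coding transcript occurs in a transcript of another gene. The related phosphatases Lpin2 and Lpin3 were not called. Lpin2 had 37.3 ± 0.347 CPM in sgp53 and 40.1 ± 1.59 CPM in sgNTC, and Lpin3 had 6.32 ± 0.862 CPM in sgp53 and 12.2 ± 7.50 CPM in sgNTC (SD, n = 3 each). For Lpin3 the sgNTC libraries ran from 6.79 CPM in line 1 to 20.8 CPM in line 2. The log2 fold change of Lpin3 was -0.95 (95% interval -1.95 to 0.05, edgeR adjusted p = 0.191). Its difference was -0.07, -1.54 and -0.75 in lines 1, 2 and 3.

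**Figure D1:**
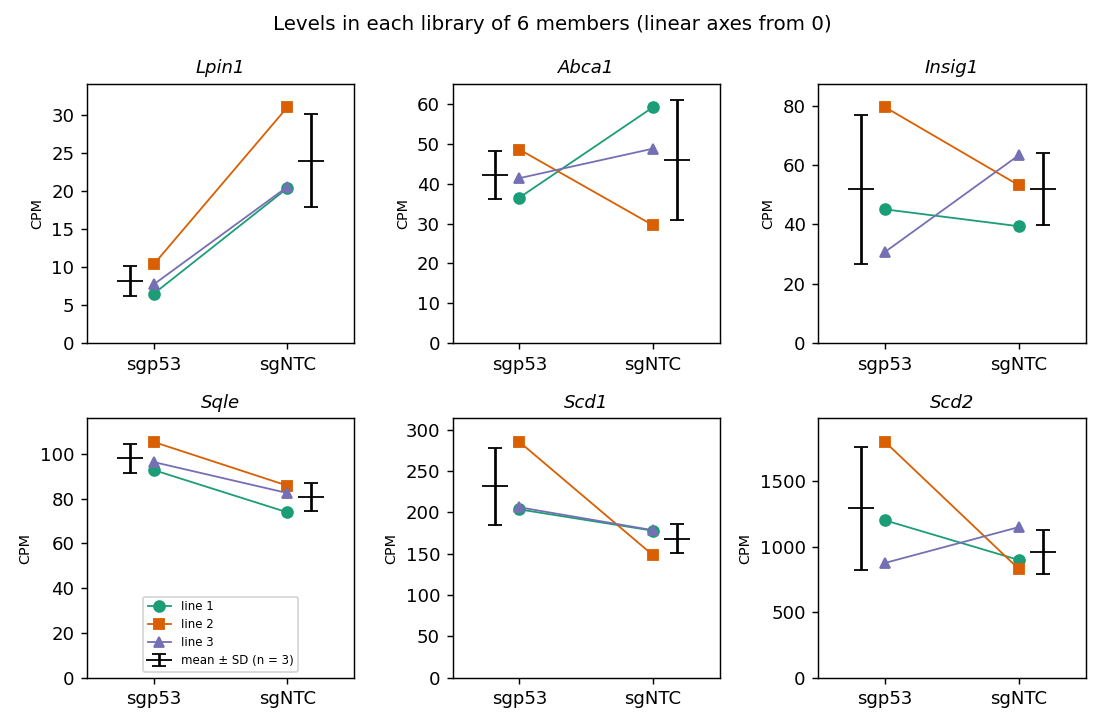
Level in CPM (linear axes from 0) of Lpin1, Abca1, Insig1, Sqle, Scd1 and Scd2 in each library, with sgp53 left and sgNTC right, lines joining the libraries of a cell line, and black bars giving mean ± SD (n = 3). Lpin1 is lower in sgp53 in all 3 lines, while Abca1 and Insig1 differ in opposite directions between lines.

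Abca1 (chromosome 4, 53030789 to 53159988 on GRCm38), the pump that moves cholesterol out of the cell, did not pass the test. It had 36.5, 48.6 and 41.4 CPM in sgp53 lines 1, 2 and 3, against 59.2, 29.6 and 48.8 CPM in sgNTC lines 1, 2 and 3. The groups overlapped, and the sgNTC libraries held both the highest and the lowest value. The log2 fold change was -0.12 (SE 0.25, 95% interval -0.73 to 0.48, edgeR adjusted p = 0.779). The difference was -0.70 in line 1 and -0.24 in line 3 but 0.72 in line 2. Without both libraries of line 1 the log2 fold change turned to 0.20. The interval still covers a fall of 39.6% and a rise of 39.8%. Stard4, which carries cholesterol between membranes inside the cell and is an SREBP2 target, had 41.9, 49.6 and 38.3 CPM in sgp53 and 46.8, 57.5 and 44.8 CPM in sgNTC. It was not called (log2 fold change -0.20, edgeR adjusted p = 0.364), and its difference was negative in each line.

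The 4 regulators had no call. Srebf2, the gene for SREBP2, had 287, 329 and 255 CPM in sgp53 lines 1 to 3, against 239.9, 283 and 284 CPM in sgNTC (log2 fold change 0.11, 95% interval -0.16 to 0.38, edgeR adjusted p = 0.554). Srebf1, the gene for SREBP1, had 218, 247 and 177 CPM in sgp53, against 217, 240.4 and 246 CPM in sgNTC (log2 fold change -0.13, 95% interval -0.43 to 0.17, edgeR adjusted p = 0.513). For both, the sgp53 library of line 3 was the lowest sgp53 value. Scap, the escort of the SREBPs, had 172, 175 and 168 CPM in sgp53 and 184, 191 and 184 CPM in sgNTC. Its groups did not overlap, yet the difference was small (log2 fold change -0.12, 95% interval -0.23 to -0.0050, edgeR adjusted p = 0.159). Insig1, which holds SCAP in the endoplasmic reticulum and is itself switched on by SREBPs, had the widest spread of the regulators. It had 45.1, 79.6 and 30.7 CPM in sgp53, against 39.4, 53.3 and 63.4 CPM in sgNTC. Its difference was 0.19 in line 1, 0.58 in line 2 and -1.04 in line 3, and the fitted log2 fold change lay near 0 with a 95% interval from -0.85 to 0.85 (edgeR adjusted p = 0.997).

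In the 8 genes of the mevalonate steps, none was called and the median log2 fold change was 0.13. Hmgcs1, the synthase that makes HMG-CoA, had 72.3, 101 and 74.3 CPM in sgp53 lines 1 to 3, against 61.7, 72.5 and 71.5 CPM in sgNTC (log2 fold change 0.27, 95% interval -0.08 to 0.61, edgeR adjusted p = 0.267). Fdps, which makes farnesyl diphosphate, had 73.4, 106 and 63.3 CPM in sgp53, against 60.4, 59.9 and 67.9 CPM in sgNTC (log2 fold change 0.37, 95% interval -0.09 to 0.83). In both, the sgp53 library of line 2 was the highest of the 6. Ggps1, which makes geranylgeranyl diphosphate, leaves the sterol route for protein prenylation. It had 27.7, 28.8 and 26.1 CPM in sgp53 and 30.5, 30.9 and 32.4 CPM in sgNTC, with no overlap of the groups (log2 fold change -0.18, 95% interval -0.36 to -0.01, edgeR adjusted p = 0.16). The other 5 members had log2 fold changes from -0.20 for the isomerase Idi1 to 0.16 for the mevalonate kinase Mvk. Between these were 0.15 for the kinase Pmvk, 0.12 for the decarboxylase Mvd and 0.03 for the thiolase Acat2.

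In the 11 genes of the squalene and sterol steps, none was called and the median log2 fold change was 0.10. Sqle, squalene epoxidase, a rate-limiting enzyme after squalene, had 92.8, 105 and 96.4 CPM in sgp53 lines 1 to 3, against 73.9, 85.8 and 82.5 CPM in sgNTC. The groups did not overlap and the difference was 0.33, 0.30 and 0.22 in lines 1, 2 and 3. The log2 fold change of 0.28 (SE 0.08, 95% interval 0.09 to 0.48) missed the threshold in edgeR (adjusted p = 0.0832) and passed it in DESeq2 (adjusted p = 0.021). Fdft1, squalene synthase, had 56.0, 72.0 and 57.6 CPM in sgp53 and 53.1, 48.4 and 54.8 CPM in sgNTC (log2 fold change 0.25, edgeR adjusted p = 0.198). Dhcr7, which makes cholesterol in the last step of a branch of the route, had 49.1, 61.5 and 34.9 CPM in sgp53 and 34.9, 33.0 and 41.7 CPM in sgNTC (log2 fold change 0.41, 95% interval -0.09 to 0.91, edgeR adjusted p = 0.247). Its line differences were 0.49, 0.89 and -0.25.

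For a pair of enzymes after lanosterol the sgp53 values lay below sgNTC in each line, while those of Sqle, Fdft1 and Sc5d lay above. All 3 lines had the same sign for 5 of the 11 genes (45.5%), against 52.2% of all tested genes. Hsd17b7, a ketosteroid reductase, had 30.7, 34.2 and 25.1 CPM in sgp53 and 32.5, 40.9 and 42.8 CPM in sgNTC (log2 fold change -0.37, SE 0.15, edgeR adjusted p = 0.169). Its difference was negative in each line and largest in line 3, at -0.77. Ebp, a sterol isomerase, had 20.0, 26.8 and 19.1 CPM in sgp53 and 25.6, 27.4 and 28.4 CPM in sgNTC (log2 fold change -0.30, edgeR adjusted p = 0.219). Its difference in line 2 was only -0.03. The remaining 6 were the cyclase Lss (0.11), the demethylase Cyp51 (0.10), Sc4mol, now named Msmo1 (-0.09), the reductase Tm7sf2 (-0.15), the decarboxylase Nsdhl (0.11) and the desaturase Sc5d (0.07), given as log2 fold changes. Tm7sf2 had 4.84 ± 1.09 CPM in sgp53 and 5.37 ± 1.42 CPM in sgNTC (SD, n = 3 each).

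In the 7 genes of fatty acid and glycerolipid steps, Lpin1 was the sole call. Scd1, a desaturase that makes oleate, had 204, 285 and 206 CPM in sgp53 lines 1 to 3, against 178, 148 and 178 CPM in sgNTC. The groups did not overlap, but the difference was 0.94 in line 2 and 0.20 and 0.21 in lines 1 and 3. The log2 fold change was 0.46 (SE 0.15, 95% interval 0.10 to 0.83), missing the threshold in edgeR (adjusted p = 0.108) and passing it in DESeq2 (adjusted p = 0.0203). Its paralog Scd2 had 1199.9, 1798 and 875 CPM in sgp53 and 898, 829.6 and 1148 CPM in sgNTC. The groups overlapped (log2 fold change 0.43, 95% interval -0.21 to 1.07, edgeR adjusted p = 0.328), with differences of 0.42, 1.12 and -0.39 in lines 1, 2 and 3. Fasn, the fatty acid synthase, had 997, 963 and 841 CPM in sgp53 and 899.7, 891 and 933 CPM in sgNTC, and its interval was narrow (log2 fold change 0.04, 95% interval -0.14 to 0.22, edgeR adjusted p = 0.748). Acly, which makes cytosolic acetyl-CoA, had a log2 fold change of 0.06, the carboxylase Acaca 0.23 and the elongase Elovl6 0.23, none of them called.

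How large a change could have been missed is shown by the 95% intervals, which are per gene and not adjusted. Among the 31 genes that were not called, the interval lay within a 2-fold change either way for 30 and within 1.5-fold for 21; the exception at 2-fold was Scd2. Their log2 fold changes ran from -0.37 for Hsd17b7 to 0.46 for Scd1, with 20 positive and 11 negative. Over all 13044 tested genes 6327 were positive and 6717 negative. The median over all 32 was 0.08, against -0.01 over all tested genes.

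**Figure D2:**
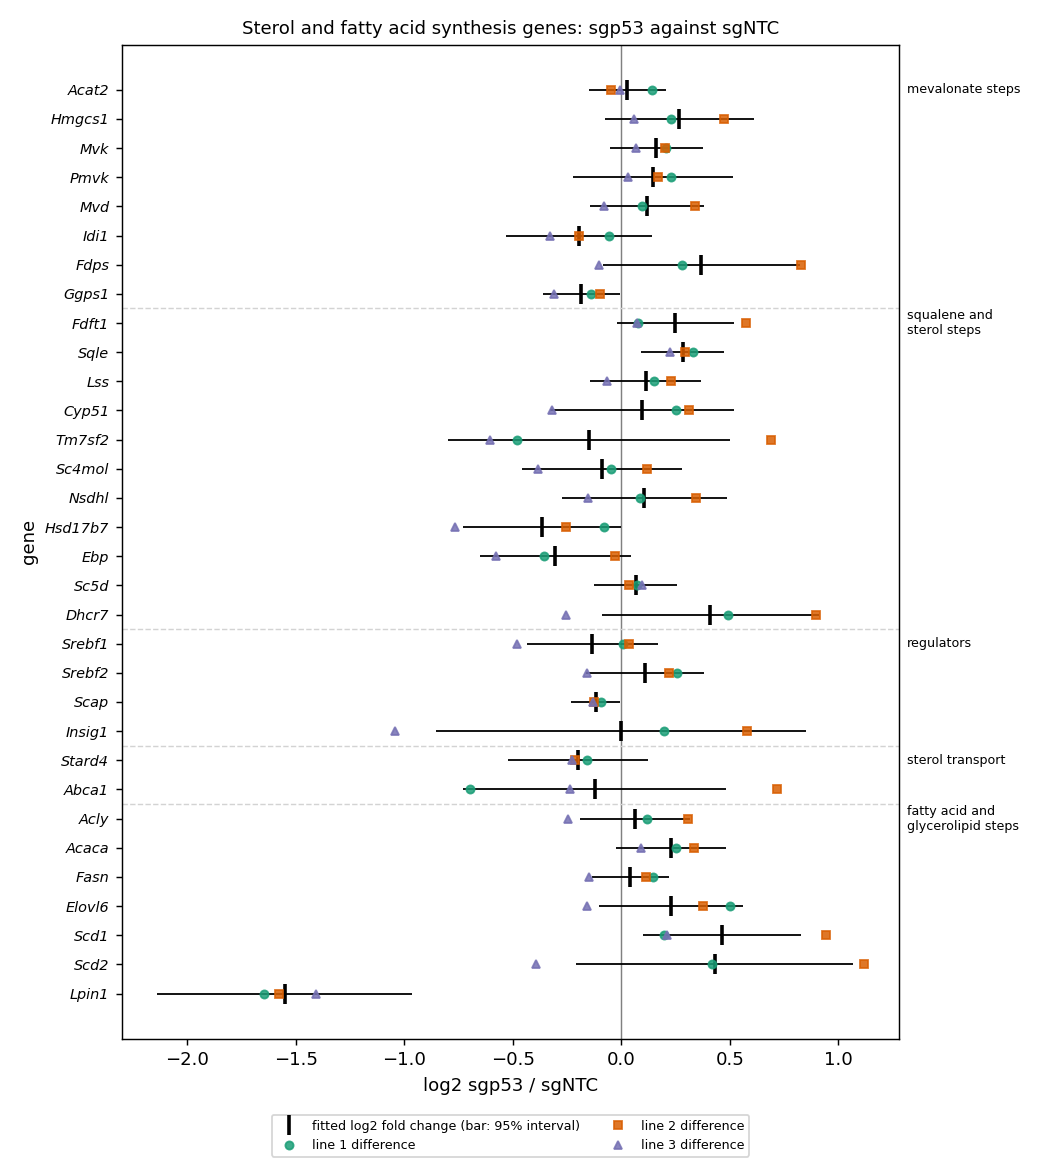
Fitted log2 fold change of sgp53 over sgNTC with its 95% interval (black), and the difference within line 1 (circles), line 2 (squares) and line 3 (triangles), for the 32 genes grouped by role. Lpin1 alone lies far from 0, at -1.55, and the triangles of line 3 lie left of the other lines for most genes.

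Levels can be set side by side between genes only per length. CPM per kb of merged exons (GENCODE vM21 basic) was highest for Scd2, at 237 in sgp53 and 176 in sgNTC, followed by Acly, at 109 in sgp53 and 104 in sgNTC, and Fasn, at 92.9 in sgp53 and 90.3 in sgNTC. Abca1 had 4.11 in sgp53 and 4.47 in sgNTC. Lpin1 was the lowest of the 32 in sgp53, at 1.32, and had 3.88 in sgNTC, where Tm7sf2 was lowest at 3.17. The 32 genes together took 0.474%, 0.579% and 0.39% of all counts in sgp53 lines 1, 2 and 3 and 0.43%, 0.421% and 0.48% in sgNTC.

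The pattern across lines was shared by many of the genes. The sgp53 library of line 2 held the highest of the 6 values for 20 of the 32 (62.5%), against 12.5% of all tested genes. Line 3 had the lowest sgp53 minus sgNTC difference of the 3 lines for 27 of the 32 (84.4%), against 35.2% of all tested genes. The difference was positive for 22 genes in line 1, 24 in line 2 and 8 in line 3. Over all 13044 tested genes it was positive for 6289, 6531 and 6380 in lines 1, 2 and 3. The medians of the 32 were 0.13, 0.26 and -0.16, and those over all tested genes lay between -0.01 and 0.00080. Among the sterol steps alone the medians were 0.08, 0.30 and -0.25. All 3 lines had the same sign for 15 of the 32 (46.9%), against 52.2% of all tested genes. With 1 library per line and group, a difference between lines has no replicate and was not tested. The lower line 3 differences stand beside the raised Rn45s of the sgp53 library of that line, whose part in them was not tested. That library held the lowest of the 6 values for 10 of the 32 (31.25%), against 25.0% of all tested genes. Without that library the median over the 32 genes was 0.17, and without the sgp53 library of line 2 it was 0.01.

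**Figure D3:**
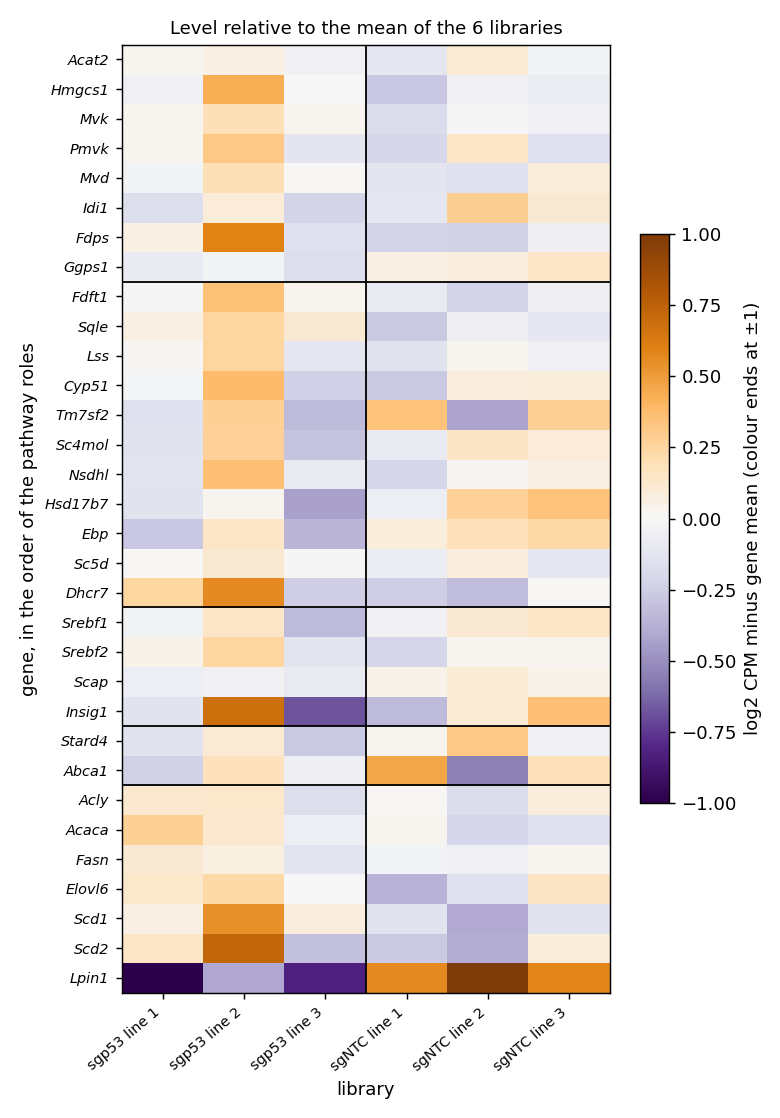
Level of each of the 32 genes (rows, in order of role) in each library (columns, sgp53 left of the line, sgNTC right), as log2 CPM minus the mean of the gene over the 6 libraries, with colours ending at ±1. The sgp53 column of line 2 is raised for most sterol genes, and the Lpin1 row is low in all 3 sgp53 columns.

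Promoter sequence is shown for 3 genes on which the account turns: Hmgcs1 as a classic SREBP2 target, Insig1 as the SREBP target that differed most between lines, and Abca1. RefSeq promoter windows (GRCm38.p6, from 250 bases before to 50 bases after a start site) were found for 26 of the 32 genes, as 32 windows; Fdft1, Fdps, Scd1, Scd2, Sqle and Stard4 had none. Each stretch below is the 250 bases before the start site, 5′ to 3′ on the strand of the gene: chr13:119690101-119690350 on the plus strand for Hmgcs1, chr5:28071162-28071411 on the plus strand for Insig1 and chr4:53159896-53160145 on the minus strand for Abca1. Capitals mark motif matches named after the sequences.
Hmgcs1: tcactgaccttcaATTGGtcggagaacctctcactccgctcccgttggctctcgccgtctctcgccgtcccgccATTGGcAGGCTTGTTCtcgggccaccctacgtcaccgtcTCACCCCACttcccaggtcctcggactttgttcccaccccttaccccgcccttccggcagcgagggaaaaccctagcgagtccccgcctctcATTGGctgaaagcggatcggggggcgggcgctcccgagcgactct
Insig1: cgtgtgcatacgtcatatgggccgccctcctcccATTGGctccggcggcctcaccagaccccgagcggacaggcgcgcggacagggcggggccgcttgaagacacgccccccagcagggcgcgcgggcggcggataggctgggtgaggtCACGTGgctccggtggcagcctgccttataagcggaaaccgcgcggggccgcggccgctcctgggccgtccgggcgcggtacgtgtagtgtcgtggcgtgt
Abca1: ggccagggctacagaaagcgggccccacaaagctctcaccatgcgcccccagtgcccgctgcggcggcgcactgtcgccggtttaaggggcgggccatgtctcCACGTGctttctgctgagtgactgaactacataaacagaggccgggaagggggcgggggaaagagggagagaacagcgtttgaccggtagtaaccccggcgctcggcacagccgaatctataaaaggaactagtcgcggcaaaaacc

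Motifs were searched on both strands of the whole windows. The sterol regulatory element TCACNCCAC was found in 1 of the 32 windows, that of Hmgcs1 at position -137 from the start site, and in 1.24% of all 32851 promoter windows. Its shorter core CACCCCAC, which overlaps it, was found in 2 windows, of Hmgcs1 and Acat2, and in 2.87% of all. The NF-Y box CCAAT, which reads ATTGG on the other strand, was found in 21 of the 32 windows (65.6%), against 37.4% of all. It lies at -237, -176, -45 and, past the stretch printed, 10 in Hmgcs1 and at -216 in Insig1. The E-box CACGTG was found in 7 windows (21.9%) of 6 genes, against 7.15% of all, at -101 in Insig1 and -147 in Abca1. Overlapping windows of Scap held the same E-box. A p53 half-site was searched for by its usual consensus after the data had been seen. It was found in 6 windows (18.8%) of 5 genes, against 8.36% of all, among them Hmgcs1 at -170. Overlapping windows of Dhcr7 held the same half-site. The Lpin1 window, of a start site inside the gene, held none of these motifs. A match is a description of letters and not a site of binding.

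Reads of some of these genes may be shared with other genes, since the sources used here name neither the read counter nor its strand setting. Of the 50-base stretches of the longest coding transcript, 86.4% for Fdps, 52.6% for Acaca, 45.9% for Acat2 (with Acat3), 21.3% for Idi1 and 10.9% for Fdft1 also occur in transcripts of other genes, so these values are uncertain. On the same strand, exons of Gm43738 overlap 77.4% of the exon bases of Fdps (GENCODE vM21). Exons on the opposite strand overlap 20.9% of the exon bases of Fdft1 (Ctsb), 18.6% of Scap and 16.0% of Hmgcs1 (GENCODE vM21). For Scd1 and Scd2 the shared part was 4.66% and 4.01%.

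Of 33 other genes of sterol and fatty acid metabolism, 32 passed the filter on low counts, and 1 was called higher in sgp53 and 0 lower (3.12%, against 6.45% of all tested genes). An unadjusted p under 0.05 was reached by 11 (34.4%), against 29.0% of all tested genes, and DESeq2 called 6 (18.8%), against 17.3% over its whole table. The called gene was Apoe, apolipoprotein E, a carrier of cholesterol and a target of the oxysterol receptors LXR. It had 13.1, 11.9 and 23.0 CPM in sgp53 lines 1 to 3, against 5.32, 3.59 and 5.52 CPM in sgNTC, with no overlap. The log2 fold change was 1.73 (SE 0.31, 95% interval 0.99 to 2.47, edgeR adjusted p = 0.0304). The Apoe call was lost without sgp53 line 1 (edgeR adjusted p = 0.0807), sgNTC line 1 (0.0557), sgNTC line 2 (0.0801) or sgNTC line 3 (0.0982), and without both libraries of line 1 (0.134), line 2 (0.105) or line 3 (0.141), while the log2 fold change stayed between 1.38 and 1.93 in all 14 alternatives. The LXR genes themselves were not called: Nr1h2 had 55.6 ± 2.68 CPM in sgp53 and 59.3 ± 1.18 CPM in sgNTC, and Nr1h3 had 1.54, 1.64 and 4.39 CPM in sgp53 and 0.721, 1.20 and 1.08 CPM in sgNTC (log2 fold change 1.33, edgeR adjusted p = 0.135). Abcg1, another LXR target and sterol pump, had 4.92, 5.48 and 11.7 CPM in sgp53 and 9.65, 12.8 and 11.8 CPM in sgNTC (edgeR adjusted p = 0.279). Its edgeR adjusted p was 0.0449 without sgp53 line 3 and 0.662 without both libraries of line 2. Mylip, listed with the LXR genes, had 9.29, 9.37 and 12.4 CPM in sgp53 and 5.14, 9.06 and 7.72 CPM in sgNTC. Its groups did not overlap, and it was not called (log2 fold change 0.50, edgeR adjusted p = 0.225).

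In the 32 of these genes that were tested, the line 3 difference was the lowest of the 3 lines for 9 (28.1%), against 35.2% of all tested genes, and the sgp53 library of line 2 held the highest of the 6 values for 6 (18.8%), against 12.5%.

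The other 10 genes with an unadjusted p under 0.05 missed the adjusted threshold in edgeR. Insig2, the INSIG that SREBPs do not induce, had 36.0, 43.3 and 37.7 CPM in sgp53 and 45.0, 76.9 and 60.3 CPM in sgNTC, with no overlap (log2 fold change -0.64, edgeR adjusted p = 0.0939). Its edgeR adjusted p was 0.0365 without sgNTC line 1 and 0.361 without both libraries of line 3. Soat1, which esterifies cholesterol for storage, had 141 ± 17.1 CPM in sgp53 and 194 ± 20.7 CPM in sgNTC (log2 fold change -0.45, edgeR adjusted p = 0.0656). Mid1ip1, an activator of acetyl-CoA carboxylase, had 22.6 ± 1.21 CPM in sgp53 and 17.4 ± 1.10 CPM in sgNTC (log2 fold change 0.38, edgeR adjusted p = 0.0614), and Acss2, which makes acetyl-CoA from acetate, had 17.6 ± 2.47 CPM in sgp53 and 23.7 ± 1.98 CPM in sgNTC (SD, n = 3 each; log2 fold change -0.43, edgeR adjusted p = 0.0947). DESeq2 called these 4, Apoe and the desaturase Fads1 (log2 fold change 0.35 in edgeR). The remaining 5 were Nr1h3, given above, Lbr (-0.34), Tmem97 (0.21), Elovl1 (0.15) and Hsd17b12 (0.14), as log2 fold changes. The edgeR adjusted p of Lbr was 0.166, with 0.0481 without sgNTC line 1 and 0.497 without both libraries of line 3.

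**Figure D4:**
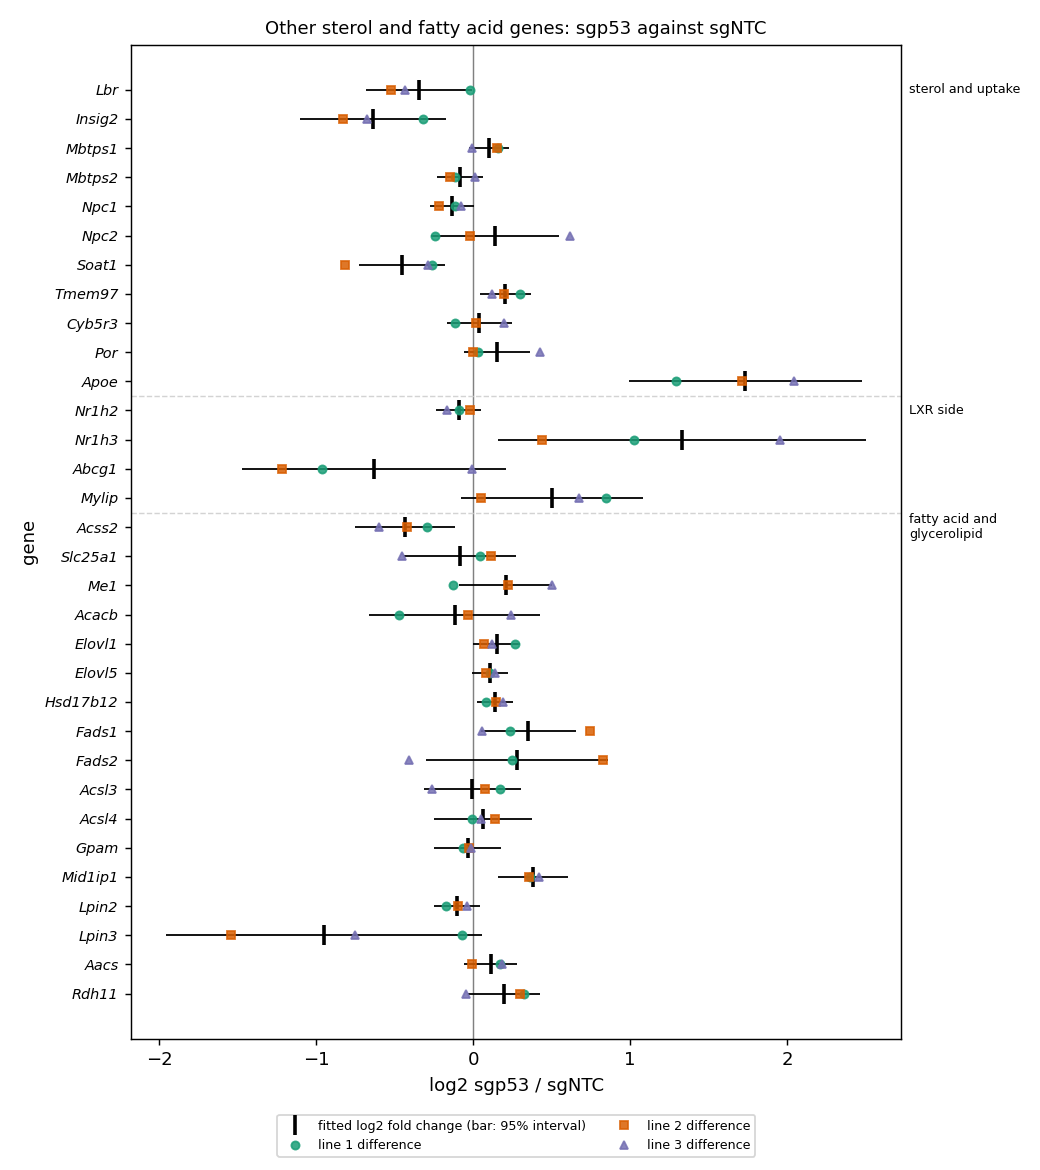
Fitted log2 fold change of sgp53 over sgNTC with its 95% interval (black), and the difference within line 1 (circles), line 2 (squares) and line 3 (triangles), for the 32 tested of 33 other genes of sterol and fatty acid metabolism. Apoe lies farthest to the right, at 1.73, with all 3 lines above 1.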

How the data were processed

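RNA sequencing was done on 3 sgp53 and 3 sgNTC libraries, each from 1 µg of RNA and a strand-specific TruSeq kit per the labels. The deposited table holds raw counts per gene symbol, without normalization by the authors. Per the submitters' processing notes, the tools were STAR, CASAVA 1.8 and DESeq2 and the build mm10 (GRCm38), with no roles given; the sources used here name no read counter, annotation or strand setting. The depth was 27503577 to 35860866 counts per library. No unassigned row and no column of another sample was present, and 27 gene names had become dates; no member was among them.

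Differences were tested with edgeR 4.0.16 in R 4.3.3 (quasi-likelihood F-test, TMM, filterByExpr on the 2 groups, Benjamini-Hochberg over 13044 genes, called at an adjusted p under 0.05, 4 residual degrees of freedom). The SE is the fitted coefficient over the square root of F, and 95% intervals use the total degrees of freedom. Differences within a line are of log2 CPM with a prior count of 2. With 3 libraries a group the smallest exact permutation p is 0.1, so no such test was used; edgeR borrows the spread over all genes. Libraries of the same number are paired, being of the same cell line per the labels; the deviations of a pair from the group means correlated at 0.089, 0.0018 and -0.027 in lines 1, 2 and 3. The chi-square per degree of freedom between libraries of a group was 21.8 to 58.0, so each counted as 1 replicate. The script was tested on simulated data. DESeq2 1.42.0, limma-voom (limma 3.58.1), the block, RLE factors, no filter and leaving out libraries or lines were the alternatives.

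All 32 members were named by rule. Of the other 33, the rule named those called, those with an unadjusted p under 0.05, and Nr1h2 and Nr1h3. Lpin2, Lpin3, Abcg1, Mylip and Rn45s were named after their values were seen. The members and lists were chosen with earlier results of these data known, and 3 further genes of the second list are not reported here. Promoters are RefSeq's, read with Python 3.11.15.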

Additional observations from a re-analysis of the deposited data

How the results depend on the processing

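Across the 14 alternatives the median log2 fold change of the 32 genes stayed between 0.01 and 0.20, and that of all genes between -0.012 and 0.00083. The count called among all genes was 311 with the line as a block and 2382 in DESeq2, against 841, and between 19 and 700 without 1 library or 1 line (146, 374 and 342 without sgp53 line 1, 2 or 3, 700 without sgNTC line 1, 293 and 133 without sgNTC line 2 or 3, and 19 to 64 without a line). Among the 32 genes it was 3 in DESeq2 and between 0 and 1 without 1 library or 1 line (0 without sgp53 line 1, sgp53 line 3, sgNTC line 3 or any line); among the other 33 it was 6 in DESeq2 and between 0 and 2 (0 without sgp53 line 1, sgNTC line 2, sgNTC line 3 or any line, and 2 without sgNTC line 1 or sgp53 line 3). The block ended the call of the epithelial marker Krt18 (edgeR adjusted p = 0.0534) and no call among the 32 genes, the other lipid genes named, Trp53, Cdkn1a, Col1a1, Col1a2 or Cd68. Some genes near 0 changed sign. Insig1 was 0.0031 with RLE factors and 0.00048 in DESeq2. Without 1 library or line the lowest and highest log2 fold changes were -0.45 and 0.43 for Insig1, -0.46 and 0.20 for Abca1, -0.028 and 0.088 for Acat2, -0.047 and 0.21 for Acly, -0.092 and 0.29 for Cyp51, -0.015 and 0.13 for Fasn, -0.066 and 0.23 for Nsdhl, -0.27 and 0.045 for Sc4mol, -0.25 and 0.024 for Srebf1 and -0.54 and 0.073 for Tm7sf2. None of these 10 was called under any alternative, and the cause of the changes of sign was not tested. With 1 library or 1 line left out, 2 libraries remained in at least 1 group, and the part of this in the counts was not tested.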
